A study of Mus musculus with 11 samples.

Results

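The 45 genes described here encode the proteins that license, open and copy replication origins in S phase, together with the cyclin, kinase and E2F factors of the G1/S transition. They were taken from a list of gene names, chosen with earlier results of these data known. Of the 45, 43 had a probe set naming them alone, out of 22180 genes measured in that way. Rfc4 and Ccne2 were not measured, because their probe sets also name Eif4a2 and Ints8. Gene expression was measured on 11 microarrays (Affymetrix Mouse Gene 2.0 ST) in common lymphoid progenitors (CLPs), bone marrow cells from which lymphocytes arise. C57BL/6 mice were given 50 µg of CpG1826, a synthetic oligonucleotide that activates Toll-like receptor 9, or PBS, the vehicle without it, on alternate days, and on day 10 their CLPs were isolated by flow cytometry. The cells were divided by Ly-6D, a surface protein that appears on CLPs as they turn towards the B lineage. The Ly-6D+ population was measured on 3 arrays after CpG and 2 after PBS, and the Ly-6D- population on 3 arrays after either treatment. The labels give no genetic alteration and no age for any group. They do not say whether replicates came from separate animals or pools, so each p-value measures only the spread between these samples, which may be technical.

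A replication origin is first marked by the origin recognition complex, on which Cdc6 and Cdt1 load the ring of Mcm2 to Mcm7 during G1. At the start of S phase, cyclin E with Cdk2 and further kinases permit Cdc45 and the GINS proteins to join the ring, which then unwinds DNA for the primase and polymerases. Many of these genes are transcribed in a burst before S phase, when E2F factors are released from the retinoblastoma protein. In bone marrow, lymphoid precursors alternate between phases of rapid division and phases of rest, and the dividing precursors hold more of these transcripts.

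E2F words and CCAAT boxes were more frequent in the promoters of the members than in those of all genes, though many members lacked them. Promoter letters were not used to choose the genes, but many such genes are known for their transcription through E2F factors, as described above. RefSeq start sites of the mouse assembly GRCm38.p6 gave windows of 300 bases, from 250 before to 50 after the start, for 36 of the 43 measured members. The windows were searched on both strands for the 8-letter E2F words TTTCCCGC, TTTCGCGC, TTTGCCGC and TTTGGCGC. At least 1 of these words lay in a window of 16 of the 36 members (44.4%), against 2.6% of the 27025 genes with a window. The 7-letter words without the first T, which every 8-letter word contains, lay in 23 of 36 members (63.9%), against 10.9% of all genes. CCAAT boxes lay in 23 of 36 members (63.9%), against 41.1% of all genes. The words are shown before the starts of the licensing factors Orc1 and Cdc6, of the ring subunits Mcm5 and Mcm6 with their overlapping words, and of Uhrf1, and Mcm10 is shown as a member whose window holds CCAAT boxes and no E2F word. Each is written 5′ to 3′ on the strand of the gene, and capitals mark the 8-letter words, the 7-letter word of Uhrf1 and the CCAAT boxes of Mcm10, while other 7-letter words and CCAAT boxes within these stretches are left in lower case.
Orc1, chr4:108579402-108579453, plus strand: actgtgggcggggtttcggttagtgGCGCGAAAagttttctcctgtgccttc
Cdc6, chr11:98907988-98908045, plus strand: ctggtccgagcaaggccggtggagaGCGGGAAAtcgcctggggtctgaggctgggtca
Mcm5, chr8:75109331-75109392, plus strand: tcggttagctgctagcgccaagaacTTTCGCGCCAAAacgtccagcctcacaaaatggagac
Mcm6, chr1:128359720-128359840, minus strand: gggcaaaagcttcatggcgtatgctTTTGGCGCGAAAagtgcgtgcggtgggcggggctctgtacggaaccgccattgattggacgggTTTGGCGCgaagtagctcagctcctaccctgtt
Uhrf1, chr17:56303264-56303320, plus strand: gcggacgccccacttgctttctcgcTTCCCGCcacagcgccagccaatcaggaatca
Mcm10, chr2:5012792-5012914, minus strand: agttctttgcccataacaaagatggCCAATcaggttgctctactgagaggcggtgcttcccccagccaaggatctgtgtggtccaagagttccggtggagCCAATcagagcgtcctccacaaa
The word of Orc1 begins 27 bases before the start and that of Cdc6 138 bases before it. Mcm5 holds 2 overlapping words, beginning 153 and 149 bases before the start, and Mcm6 holds 3, beginning 110, 106 and 47 bases before it. The 7-letter word of Uhrf1 begins 48 bases before the first of its 2 listed starts. An 8-letter word, TTTCGCGC, begins 185 bases before the second start and is not shown. The CCAAT boxes of Mcm10 shown begin 98 and 23 bases before the start, and a further one lies after it. A match is a description of letters and not a binding site, and a window without a match says only that the letters are absent there.

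The arrays resembled each other closely and carried the marks of their sort. Their medians over all probe sets lay between 3.85 and 3.96 on the log2 scale, and their number limits the precision. Ly6d, which encodes the sorted marker, had group means of 12.57 after CpG and 12.58 after PBS in the Ly-6D+ sort, and of 7.72 and 8.23 in the Ly-6D- sort. The early lymphoid gene Dntt had group means of 12.01 to 12.30 and the receptor gene Flt3 of 10.54 to 10.84. Il7r, which encodes the interleukin-7 receptor, had group means of 10.71 and 10.74 in the Ly-6D+ sort, and of 10.06 after PBS and 9.25 after CpG in the Ly-6D- sort. Transcripts of mature myeloid cells were also bright in every group, with group means of 12.58 to 12.63 for S100a8 and 11.64 to 11.75 for S100a9. Other granulocyte and monocyte genes were dimmer, such as F13a1 at 4.74 to 8.60. Detection values were not used here, so no marker was called absent.

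As a group, the replication genes stood lowest in the Ly-6D- CLPs of PBS-treated mice. The mean log2 level of the 43 members was 8.59, 8.51 and 8.50 in the 3 arrays of that group, and 8.75, 8.73 and 8.67 in Ly-6D- CLPs after CpG. It was 8.79 and 8.78 in Ly-6D+ CLPs after PBS, and 8.82, 8.79 and 8.79 in Ly-6D+ CLPs after CpG. Every array of Ly-6D- CLPs after PBS lay below the other 8 arrays, and the 2 groups of Ly-6D+ CLPs met at 8.79. The lowest of the 4 group means fell in Ly-6D- CLPs after PBS for 38 of the 43 members, against 23.7% of all genes, and none of the 43 had its highest mean there, against 25% of all genes. The exceptions were Gins3, lowest in Ly-6D+ CLPs after CpG (22.1% of all genes), and 4 members, Cdk2, Mcm6, Rpa2 and Tyms, lowest in Ly-6D- CLPs after CpG (26.2% of all genes). None was lowest in Ly-6D+ CLPs after PBS, against 28.1% of all genes. The highest group mean lay in Ly-6D+ CLPs after CpG for 20 members (21.7% of all genes), in Ly-6D- CLPs after CpG for 12 (27.4%) and in Ly-6D+ CLPs after PBS for 11 (25.9%). In 13 members each array of Ly-6D- CLPs after PBS was below each of the other 8 arrays, against 2.04% of all genes. These were Mcm2, Mcm4, Mcm5, Mcm10, Cdc45, Pole2, Rrm1, Rrm2, Tk1, Ccne1, E2f1, E2f2 and Slbp. In RNA from sorted populations, fewer dividing cells and less of a transcript per cell cannot be told apart.

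**Figure D1:**
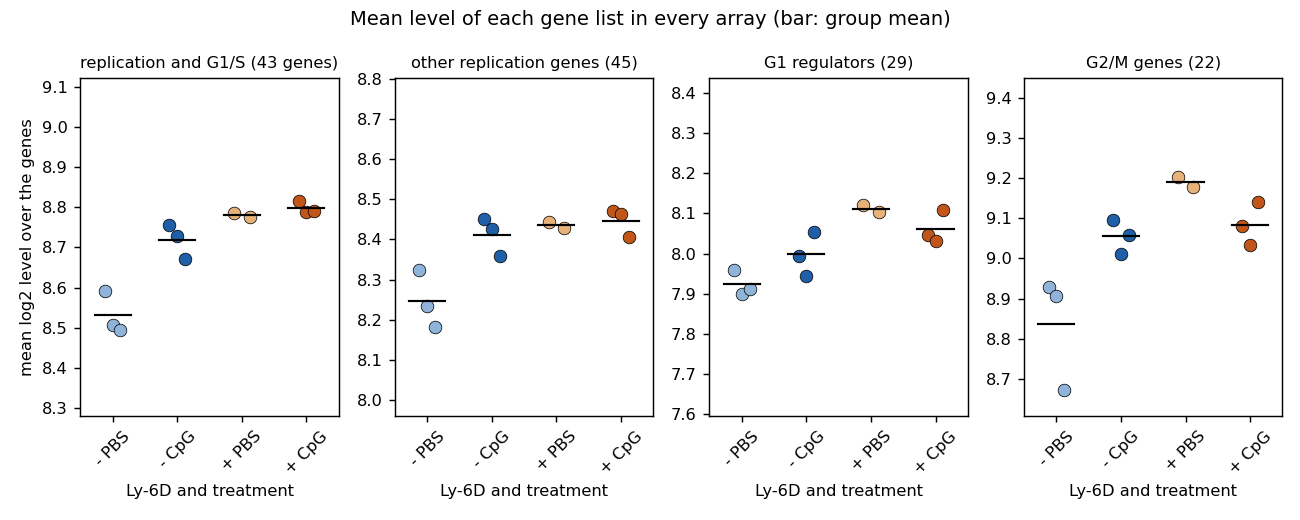
Mean log2 level of 4 gene lists in each of the 11 arrays, by population (Ly-6D- or Ly-6D+) and treatment; points are arrays and bars are group means. For the 43 replication and G1/S genes, the 3 arrays of Ly-6D- CLPs after PBS sit at 8.50 to 8.59, below all others.

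**Figure D2:**
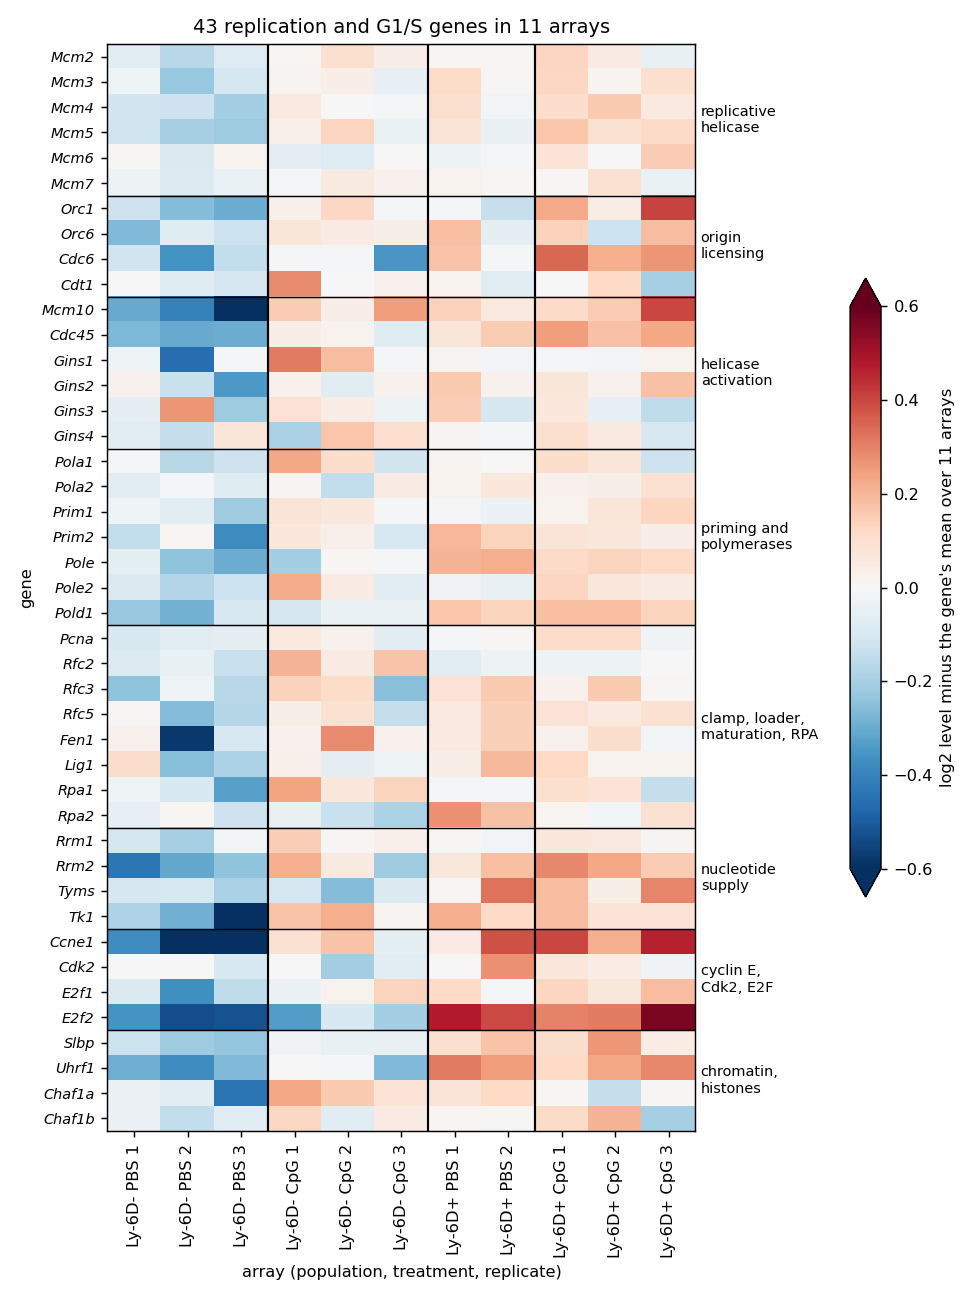
Log2 level of each of the 43 members (rows, by role) in each array (columns), after subtraction of the gene's mean over the 11 arrays; blue is below and red above that mean, and colours saturate at 0.6. The 3 columns of Ly-6D- CLPs after PBS at the left are mostly blue, and E2f2 and Ccne1 show the strongest contrast.

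In the following, a log2 difference is between group means, its SE comes from limma, and the adjusted p is limma's after Benjamini-Hochberg adjustment over all 22180 genes, with a gene called at an adjusted p below 0.05. The comparisons of CpG with PBS in Ly-6D- CLPs and of the 2 populations after PBS use the same 3 arrays of Ly-6D- CLPs after PBS, so they are not independent of each other.

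The 6 subunits of the replicative helicase, Mcm2 to Mcm7, had small differences, and their mean was lowest in Ly-6D- CLPs after PBS. Their mean level ran from 9.63 to 9.72 in the arrays of Ly-6D- CLPs after PBS, 9.78 to 9.82 in Ly-6D- CLPs after CpG, 9.77 to 9.83 in Ly-6D+ CLPs after PBS and 9.84 to 9.88 in Ly-6D+ CLPs after CpG. The median log2 difference of the 6 subunits was 0.14 for CpG in Ly-6D- CLPs, 0.05 for CpG in Ly-6D+ CLPs, 0.15 between populations after PBS and 0.08 between them after CpG. Mcm5 had the largest difference for CpG in both populations, at 0.22 (SE 0.09, adjusted p = 0.342 by limma) in Ly-6D- CLPs and 0.11 (adjusted p = 0.943) in Ly-6D+ CLPs. Mcm6, whose promoter holds 3 E2F words, had a difference of -0.02 for CpG in Ly-6D- CLPs and -0.0008 between populations after PBS.

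Among the 4 licensing genes, Orc1 had the largest difference for CpG and Cdc6 the largest between populations. None was called, against at most 4.59% of all genes in a comparison. The log2 level of Orc1, the largest subunit of the origin recognition complex, was 6.46, 6.32 and 6.28 in Ly-6D- CLPs after PBS, with 6.61, 6.70 and 6.57 after CpG, 6.57 and 6.44 in Ly-6D+ CLPs after PBS, and 6.81, 6.62 and 6.99 after CpG. Orc1 was thus higher in every CpG array than in any PBS array of the same population. The difference was 0.30 (SE 0.12, adjusted p = 0.710 by limma) in Ly-6D+ CLPs and 0.28 (SE 0.11, adjusted p = 0.342) in Ly-6D- CLPs, and neither was called. Cdc6, which loads the helicase with Cdt1, stood at 8.14, 7.90 and 8.11 in Ly-6D- CLPs after PBS, with 8.25, 8.25 and 7.91 after CpG, 8.43 and 8.25 in Ly-6D+ CLPs after PBS, and 8.60, 8.48 and 8.52 after CpG. Its levels in Ly-6D+ CLPs were above those of Ly-6D- CLPs under the same treatment in every array, by 0.40 after CpG (SE 0.12, adjusted p = 0.154 by limma) and 0.29 after PBS (adjusted p = 0.425). Cdt1 differed by 0.03 between populations after PBS and by -0.13 after CpG.

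Of the factors that switch the loaded helicase on, Cdc45 was called between populations, while Mcm10 had the largest difference for CpG in Ly-6D- CLPs. Mcm10, which helps the helicase to start unwinding, stood at 7.24, 7.14 and 6.95 in Ly-6D- CLPs after PBS, with 7.70, 7.59 and 7.80 after CpG, 7.69 and 7.60 in Ly-6D+ CLPs after PBS, and 7.66, 7.70 and 7.95 after CpG. All 3 arrays of Ly-6D- CLPs after PBS lay apart below the other 8, among which the groups overlapped. The difference for CpG was 0.58 in Ly-6D- CLPs (SE 0.11, adjusted p = 0.0543 by limma) and 0.12 in Ly-6D+ CLPs (SE 0.13, adjusted p = 0.957), and that between populations after PBS was 0.53 (SE 0.13, adjusted p = 0.0677). Cdc45, a core part of the moving helicase, stood at 8.59, 8.56 and 8.56 in Ly-6D- CLPs after PBS, with 8.90, 8.88 and 8.79 after CpG, 8.93 and 9.01 in Ly-6D+ CLPs after PBS, and 9.11, 9.04 and 9.09 after CpG. The 4 groups did not overlap for Cdc45, and their means increased in that order. Cdc45 was called higher in Ly-6D+ than in Ly-6D- CLPs after PBS (0.40, SE 0.09, adjusted p = 0.0492 by limma) and over both treatments (0.31, SE 0.06, adjusted p = 0.0134). Its difference for CpG in Ly-6D- CLPs was 0.29 (adjusted p = 0.164). The 4 GINS subunits, which join Cdc45 on the ring, had differences of 0.04 (Gins3) to 0.33 (Gins1) for CpG in Ly-6D- CLPs. None was called in any comparison, against at most 4.59% of all genes.

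Of the primase and polymerase genes, the catalytic subunits of the leading- and lagging-strand polymerases, Pole and Pold1, followed the population. The log2 level of Pold1 was 8.24, 8.19 and 8.38 in Ly-6D- CLPs after PBS, with 8.37, 8.43 and 8.43 after CpG, 8.64 and 8.61 in Ly-6D+ CLPs after PBS, and 8.65, 8.65 and 8.61 after CpG. The 5 Ly-6D+ arrays were above all 6 Ly-6D- arrays, and the difference averaged over both treatments was 0.29 (SE 0.06, adjusted p = 0.0254 by limma). Pole stood at 8.30, 8.11 and 8.06 in Ly-6D- CLPs after PBS, with 8.15, 8.37 and 8.35 after CpG, 8.56 and 8.57 in Ly-6D+ CLPs after PBS, and 8.47, 8.49 and 8.47 after CpG. Its Ly-6D+ arrays again lay above all Ly-6D- arrays, by 0.30 over both treatments (SE 0.07, adjusted p = 0.0447 by limma). The second, dimmer probe set of Pole gave 0.38 after PBS and 0.27 after CpG, against 0.41 and 0.19 for the first. For CpG, the 7 genes of this group differed by 0.02 (Pola2) to 0.20 (Pole2) in Ly-6D- CLPs and by -0.11 (Prim2) to 0.12 (Pole2) in Ly-6D+ CLPs. None was called, against 0.546% and 0.0271% of all genes.

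None of the 8 measured genes of the clamp, its loader, Okazaki fragment maturation or single-strand binding was called in any comparison. Of all genes, 0% to 4.59% were called in a comparison, so with so few genes this does not set the group apart. Pcna, the sliding clamp that tethers the polymerases, had group means of 11.43 to 11.56, and differed by 0.07 for CpG in either population and between populations after PBS. The flap nuclease gene Fen1 had the largest difference for CpG in Ly-6D- CLPs, 0.33 (SE 0.15, adjusted p = 0.416 by limma), and its second probe set gave 0.27. Rpa2, a subunit of the single-strand binding protein, had the most negative difference for CpG of the 43 members in both populations. It stood at 8.95, 9.01 and 8.88 in Ly-6D- CLPs after PBS, with 8.96, 8.86 and 8.81 after CpG, 9.27 and 9.18 in Ly-6D+ CLPs after PBS, and 9.01, 8.98 and 9.09 after CpG. Within Ly-6D+ CLPs the CpG arrays lay below the PBS arrays, with a difference of -0.20 (SE 0.10, adjusted p = 0.802 by limma). Its partner Rpa1 had differences for CpG of 0.29 in Ly-6D- CLPs (adjusted p = 0.310) and 0.02 in Ly-6D+ cells.

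None of the 4 enzymes of nucleotide supply was called, against at most 4.59% of all genes in a comparison. The levels of Tk1, Rrm1 and Rrm2 were lowest in the 3 arrays of Ly-6D- CLPs after PBS. Tk1, the thymidine kinase of S phase, stood at 8.88, 8.78 and 8.45 in Ly-6D- CLPs after PBS, with 9.24, 9.28 and 9.08 after CpG, 9.29 and 9.19 in Ly-6D+ CLPs after PBS, and 9.25, 9.15 and 9.15 after CpG. The last 3 groups overlapped, and the first lay below them. The difference for CpG was 0.50 in Ly-6D- CLPs (SE 0.12, adjusted p = 0.106 by limma) and -0.05 in Ly-6D+ CLPs (SE 0.13). Rrm2, the regulated subunit of ribonucleotide reductase, had differences of 0.34 for CpG in Ly-6D- CLPs (adjusted p = 0.256) and 0.45 between populations after PBS (adjusted p = 0.144), and its second probe set gave 0.48 and 0.82. Tyms, which makes thymidylate, differed by -0.02 for CpG in Ly-6D- CLPs, and by 0.30 and 0.32 between populations after PBS and CpG (adjusted p = 0.367 and 0.231).

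The regulators of S phase entry carried the largest differences among the members, in E2f2 and Ccne1. E2f2 encodes an activating E2F factor. It stood at 5.32, 5.14 and 5.15 in Ly-6D- CLPs after PBS, with 5.34, 5.58 and 5.47 after CpG, 6.15 and 6.07 in Ly-6D+ CLPs after PBS, and 5.97, 5.98 and 6.24 after CpG. The Ly-6D+ arrays were all above the Ly-6D- arrays. The difference was 0.91 after PBS (1.88-fold, SE 0.12, adjusted p = 0.00312 by limma), 0.60 after CpG (1.52-fold, SE 0.11, adjusted p = 0.0162) and 0.75 over both treatments (SE 0.08, adjusted p = 0.000347). Ccne1, which encodes cyclin E1, the partner of Cdk2, stood at 7.29, 7.03 and 6.94 in Ly-6D- CLPs after PBS, with 7.75, 7.83 and 7.60 after CpG, 7.71 and 8.04 in Ly-6D+ CLPs after PBS, and 8.06, 7.88 and 8.12 after CpG. Ly-6D- CLPs after PBS lay apart from the rest. Ccne1 was called higher in Ly-6D+ CLPs after PBS (0.79, 1.73-fold, SE 0.15, adjusted p = 0.0206 by limma) and over both treatments (0.54, SE 0.10, adjusted p = 0.00969). Its difference for CpG in Ly-6D- CLPs was 0.64 (1.56-fold, SE 0.13, adjusted p = 0.0609). E2f1, a further activating factor, differed by 0.24 for CpG in Ly-6D- CLPs and 0.26 between populations after PBS (adjusted p = 0.368 and 0.399), while Cdk2 itself differed by -0.06 and 0.17.

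Among the genes that serve chromatin behind the fork, Uhrf1 had the largest difference between populations and Chaf1a the largest for CpG in Ly-6D- CLPs. Uhrf1, which guides maintenance DNA methylation, stood at 9.20, 9.12 and 9.23 in Ly-6D- CLPs after PBS, with 9.50, 9.48 and 9.22 after CpG, 9.80 and 9.74 in Ly-6D+ CLPs after PBS, and 9.61, 9.73 and 9.78 after CpG. Its Ly-6D+ arrays were all above its Ly-6D- arrays, by 0.59 after PBS (1.51-fold, SE 0.11, adjusted p = 0.0223 by limma) and 0.45 over both treatments (SE 0.07, adjusted p = 0.00589). Chaf1a, the large subunit of chromatin assembly factor 1, stood at 7.99, 7.96 and 7.58 in Ly-6D- CLPs after PBS, with 8.25, 8.18 and 8.10 after CpG, 8.10 and 8.14 in Ly-6D+ CLPs after PBS, and 8.03, 7.88 and 8.03 after CpG. Its CpG arrays lay above the PBS arrays in Ly-6D- CLPs and below them in Ly-6D+ CLPs, with differences of 0.34 (SE 0.12, adjusted p = 0.262 by limma) and -0.14 (SE 0.13, adjusted p = 0.946). Slbp, which binds the end of histone messenger RNA, had differences of 0.32 between populations after PBS and 0.17 after CpG (adjusted p = 0.159 and 0.457).

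**Figure D3:**
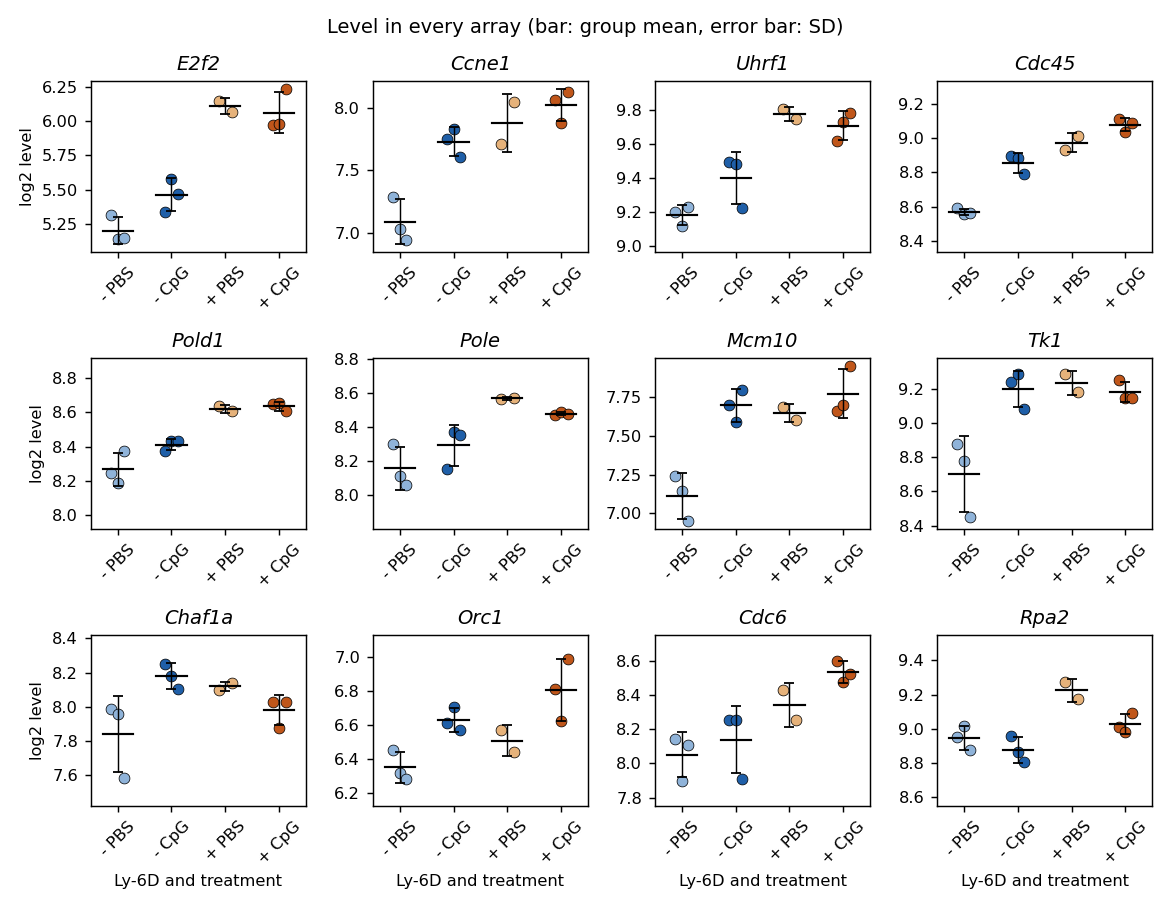
Log2 level of 12 members in every array, by Ly-6D (- or +) and treatment; bars are group means, error bars SDs, and each panel has its own axis that does not start at 0. E2f2, Uhrf1, Pold1 and Pole separate by population, while Mcm10, Ccne1 and Tk1 have Ly-6D- CLPs after PBS below the other groups.

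After PBS, E2f2, Ccne1, Uhrf1 and Cdc45 were called higher in Ly-6D+ than in Ly-6D- CLPs, and nearly all other members had a higher mean there without being called. The 4 members called, of 43, stand against 1.18% of all genes called higher, and no member was called lower, against 0.798% of all genes. The share over all genes includes genes dimmer than any member. With the dimmest genes left out, 308 of the 14786 genes kept were called higher and 255 lower. The difference was above 0 for 42 of the 43 members, with a median of 0.22, against 48.1% of all genes and a median of -0.0091. Every Ly-6D+ array was above every Ly-6D- array for 32 members and below for none, against 12.9% and 14% of all genes. At an unadjusted p below 0.05, limma gave 14 members higher and none lower, against 5.86% and 6.06% of all genes. With same-numbered arrays treated as a block, E2f2 alone of the 4 kept its call. E2f2 kept its call without any one array. The call of Cdc45 was lost without any one of the 11 arrays, with adjusted p up to 0.224 by limma. The call of Ccne1 was lost without Ly-6D+ PBS replicate 2 (adjusted p = 0.164 by limma) or Ly-6D- PBS replicate 2 or 3 (0.0698 and 0.0666). That of Uhrf1 was lost without Ly-6D+ PBS replicate 1 or 2 (0.158 and 0.104 by limma) or Ly-6D- PBS replicate 1 or 2 (0.0611 and 0.0765).

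After CpG, E2f2 alone of the members was called higher in Ly-6D+ than in Ly-6D- CLPs. The 1 member called higher stands against 1.2% of all genes, and none was called lower, against 0.938% of all genes. Centring each array on its median turned the split over all genes from 266 higher and 208 lower to 216 and 253. The difference was above 0 for 30 members and below 0 for 13, with a median of 0.08, against 49.1% of all genes above 0 and a median of -0.0041. That median of the members was 0.026 with each array centred on its median, and 0.045 without Ly-6D- CpG replicate 3. The Ly-6D+ arrays were all higher for 10 members, against 7.89% of all genes, and all lower for Rfc2 and Chaf1a, against 9.04%. At an unadjusted p below 0.05, limma gave 7 members higher (E2f2, Cdc6, Uhrf1, Tyms, Cdc45, Pold1 and Ccne1), against 5.9% of all genes, and none lower, against 6.82%. The call of E2f2 was lost without Ly-6D+ CpG replicate 3 (difference 0.51, adjusted p = 0.0563 by limma) or Ly-6D- CpG replicate 1 (0.54, adjusted p = 0.0708).

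Averaged over both treatments, E2f2, Ccne1, Uhrf1, Cdc45, Pold1 and Pole were called higher in Ly-6D+ CLPs. These 6 of 43 stand against 2.37% of all genes called higher, and no member was called lower, against 2.22%. The difference was above 0 for 39 members with a median of 0.14, against 48.7% of all genes and a median of -0.0048. At an unadjusted p below 0.05, limma gave 16 members higher and none lower, against 7.61% and 8.78% of all genes. Without Ly-6D+ PBS replicate 2, E2f2 and Uhrf1 were the 2 members called, and Ccne1 (0.46, adjusted p = 0.0525 by limma) and Cdc45 (0.29, adjusted p = 0.0629) were lost. Pold1 lost its call without any one array numbered 1 or 2 (adjusted p up to 0.0942 by limma), and Pole without any one array other than Ly-6D- PBS replicate 1 (adjusted p up to 0.127).

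In Ly-6D- CLPs, the replication genes had higher means after CpG than after PBS in 39 of 43 cases, and no single member was called. The median difference was 0.16, against -0.0006 over all genes, of which 49.8% had a difference above 0. The largest were Ccne1 at 0.64, Mcm10 at 0.58 and Tk1 at 0.50, and the 4 members below 0 were Cdk2, Mcm6, Rpa2 and Tyms, at -0.02 to -0.07. Of all genes, 0.302% were called higher and 0.243% lower, which is 67 and 54 genes, and 93 and 43 after centring each array on its median. These counts rested on single arrays: leaving out 1 of the 11 gave from 4 higher and 1 lower without Ly-6D- CpG replicate 2 to 171 and 138 without Ly-6D- CpG replicate 3. At an unadjusted p below 0.05, limma gave 14 members higher and none lower, against 6.35% and 5.66% of all genes. Every CpG array was above every PBS array for 21 members and below for none, against 8.5% and 7.2% of all genes. Mcm10 and Ccne1 missed the threshold narrowly. Under the alternatives their adjusted p ran from 0.0174 to 0.190 and from 0.0198 to 0.212 by limma, and up to 4 members were called (Mcm10, Ccne1, Cdc45 and Tk1, with a variance trend and robust estimation).

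In Ly-6D+ CLPs, the differences between CpG and PBS scattered about 0, from 0.30 for Orc1 to -0.20 for Rpa2. They were above 0 for 28 members and below 0 for 15, with a median of 0.0095, against 51% of all genes above 0 and a median of 0.0032. No member was called, against 0.0271% of all genes called higher and 0% called lower. At an unadjusted p below 0.05, limma gave 1 member, Orc1, higher and none lower, against 3.13% and 3.38% of all genes. The CpG arrays were all above the PBS arrays for 8 members, against 10.7% of all genes, and all below for Prim2, Pole, Rpa2 and Chaf1a, against 9.76%. With 2 PBS arrays, the 95% interval of a single member was wide: it ran from -0.18 to 0.47 for Ccne1 and from -0.16 to 0.41 for Mcm10.

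The CpG effects of the 2 populations use different arrays, and their difference was tested directly. The effect was smaller in Ly-6D+ than in Ly-6D- CLPs for 39 of 43 members, with a median difference of -0.15 and 4 members above 0, against 50.2% of all genes above 0 and a median of 0.001. No member and no gene was called (0% in either direction), so a difference between the populations' responses was not shown for any of them. At an unadjusted p below 0.05, limma gave 4 members lower and none higher, against 3.32% and 3.05% of all genes. These were Tk1 at -0.55 (SE 0.18, adjusted p = 0.660), Chaf1a at -0.48 (SE 0.17), Ccne1 at -0.50 (SE 0.19) and Mcm10 at -0.46 (SE 0.17). Averaged over both populations, the CpG effect was above 0 for 39 members, against 50.5% of all genes, with a median of 0.09. No member was called for that average, against 0.28% of all genes called higher and 0.203% lower, and 8 were higher and none lower at an unadjusted p below 0.05, against 5.8% and 5.54%. Mcm10 (0.35, adjusted p = 0.121 by limma) and Ccne1 (0.39, adjusted p = 0.135) had the smallest p.

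**Figure D4:**
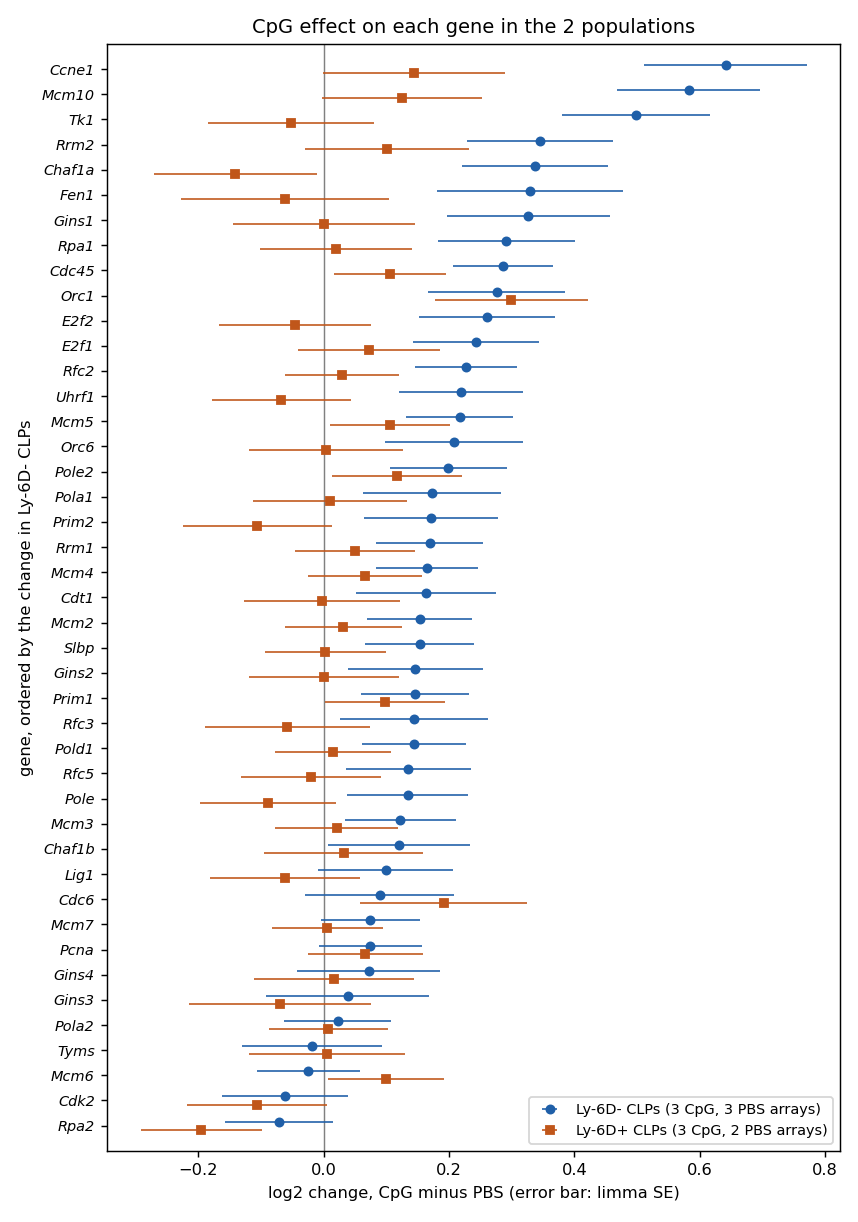
Log2 difference between CpG and PBS for each of the 43 members in Ly-6D- CLPs (blue) and Ly-6D+ CLPs (orange), ordered by the value in Ly-6D- CLPs; error bars are limma's SE. The blue points lie above 0 for 39 members, up to 0.64 for Ccne1, while the orange points scatter about 0 with a median of 0.0095.

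Members with and without an E2F word overlapped in their differences. For CpG in Ly-6D- CLPs, the median was 0.14 over the 16 members with an 8-letter word (range -0.06 to 0.28) and 0.19 over the 20 without one (range -0.07 to 0.64). Between populations after PBS, the medians were 0.17 and 0.27. Ccne1, Tk1 and Mcm10, with the largest differences for CpG in Ly-6D- CLPs, hold no 8-letter or 7-letter E2F word in their windows. For CpG in Ly-6D+ CLPs, the medians were 0.0076 with an 8-letter word and 0.026 without one. The largest differences there were those of Orc1 (0.30) and Cdc6 (0.19), whose windows hold such a word. Neither was called (adjusted p = 0.710 and 0.894 by limma).

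Of 49 other replication and G1/S genes, 45 were measured. For CpG in Ly-6D- CLPs, 38 of them had a difference above 0, against 49.8% of all genes, with a median of 0.16. None was called, against 0.302% of all genes called higher and 0.243% lower. Dck, which salvages deoxycytidine, and Ticrr, which brings factors to the origin, were called higher in Ly-6D+ CLPs after PBS (0.72 and 0.54, adjusted p = 0.0084 and 0.0138 by limma). That is 2 of 45, against 1.18% of all genes called higher. Dck and Cdc7, a kinase that fires origins, were called over both treatments (0.55 and 0.53). These 2 of 45 stand against 2.37% of all genes called higher. The 29 regulators of G1 were more divided, with 18 above 0 and 11 below for CpG in Ly-6D- CLPs, and 17 above and 12 below between populations after PBS. Of all genes, 49.8% and 48.1% were above 0 in these comparisons. E2f8, a repressing E2F factor, was the 1 of the 29 called higher after CpG in Ly-6D- CLPs, against 0.302% of all genes. Its difference was 0.58 (SE 0.10, adjusted p = 0.0453 by limma). No member was called there, but Mcm10 and Ccne1 lay close to it (0.58 and 0.64, adjusted p = 0.0543 and 0.0609 by limma). Calls of single genes outside the members were not followed under the alternatives. E2f8, E2f7, the Cdk inhibitor gene Cdkn2c and the D cyclin gene Ccnd3 were called higher in Ly-6D+ CLPs after PBS, by 0.87, 0.75, 0.70 and 1.63. In that comparison 1.18% of all genes were called higher. After CpG, Ccnd3 was the 1 gene of the G1 list called, by 1.04, against 1.2% of all genes called higher. Over both treatments 6 of the 29 were called higher in Ly-6D+ CLPs, against 2.37% of all genes. Mycn, a MYC-family transcription factor, was the 1 called lower (-0.71, adjusted p = 0.0101 by limma), against 2.22% of all genes.

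Genes of G2 and mitosis, too, had their lowest array means in Ly-6D- CLPs after PBS, at 8.67 to 8.93, against 9.01 to 9.20 in the other 8 arrays. All 22 measured G2/M genes had a difference above 0 for CpG in Ly-6D- CLPs (median 0.23) and below 0 for CpG in Ly-6D+ CLPs (median -0.10), with none called in either. Of all genes, 49.8% were above 0 in the first and 51% in the second, and 0.546% and 0.0271% were called. Between populations after PBS all 22 were above 0 (median 0.35), against 48.1% of all genes. Foxm1 (0.77) and Aurkb (0.46), regulators of mitosis, were called higher there (adjusted p = 0.0124 and 0.0496 by limma), against 1.18% of all genes. Mki67, a general mark of cycling cells, differed by 0.07 for CpG in Ly-6D- CLPs (adjusted p = 0.886), -0.11 in Ly-6D+ CLPs (0.963), and 0.38 and 0.21 between populations after PBS and CpG (0.201 and 0.502 by limma).

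Markers of several cell types differed between the same groups. The 13 granulocyte and monocyte genes had array means of 9.07 to 9.26 in Ly-6D- CLPs after PBS and 9.45 to 9.89 after CpG, with Ly6c2, Ccr2 and F13a1 called higher, and of 8.36 to 8.82 in Ly-6D+ CLPs. For CpG in Ly-6D- CLPs, 10 of the 13 were above 0 and 3 below, with a median of 0.16. Those below were Elane (8.92 after PBS, 8.63 after CpG), S100a8 (12.63, 12.59) and S100a9 (11.75, 11.69). The 8 measured CLP genes of 10, Ly6d among them, had array means of 9.85 to 9.88 in Ly-6D- CLPs after PBS and 9.28 to 9.57 after CpG, with Il7r and Rag2 called lower, and of 10.20 to 10.35 in Ly-6D+ CLPs. Between populations after PBS, 4 of the 8 were above 0 and 4 below (median 0.03), with Ly6d and Il7r called higher and Kit and Cd27 called lower in the Ly-6D+ sort. The 9 measured stem and multipotent progenitor genes of 10 had array means of 6.12 to 6.13 in Ly-6D- CLPs after PBS, 5.74 to 5.95 after CpG and 5.21 to 5.47 in Ly-6D+ CLPs. The 12 measured B-lineage genes of 14 had array means of 6.13 to 6.24 in Ly-6D- CLPs after PBS, 5.54 to 5.81 after CpG, 8.85 to 8.90 in Ly-6D+ CLPs after PBS and 8.12 to 8.36 after CpG. The 7 measured plasmacytoid dendritic cell genes of 8 had array means of 7.41 to 7.66 in Ly-6D- CLPs and 8.84 to 9.21 in Ly-6D+ CLPs. The 8 measured erythroid and megakaryocyte genes of 12 ran from 5.67 to 6.30 over all arrays, with Car2 called lower (-1.81) and Tfrc called higher (0.81) in the Ly-6D+ sort after PBS. The 9 measured T and NK cell genes of 10 ran from 3.61 to 4.03. The part of these cell types in the differences of the replication genes was not tested.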

How the data were processed

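The authors deposited log2 values. The submitters' processing notes name Partek and RMA, without versions. RMA fits every array to 1 distribution, so levels are relative to the array. Per the labels' protocols, 5 ng of RNA was amplified and 5 µg of cDNA labelled. Of 41345 probe sets, the 23521 with exactly 1 symbol were used, and each of 22180 genes took its brightest probe set by mean over the 11 arrays. Groups came from the sample titles. A model with 4 group means was fitted with limma 3.58.1 in R 4.3.3 (7 residual and 3.48 prior degrees of freedom), and 7 comparisons were drawn from it. The model was also run on simulated data with changes larger than those of the members. That run does not show whether smaller changes would be found. Means of a list over its genes are plain means of log2 levels. Values in every array were given for members called in any comparison and for the 2 with the smallest p in each; other members were named as the extremes of their role. The members and lists were chosen with earlier results of these data known. Alternatives covered probe sets, filters, variance models, normalisation, threshold, a replicate block and leaving out each array. In deviations from group means, same-numbered arrays of different groups correlated at -0.03 to 0.18, above 0.1 in 2 of 15 pairs. No pair of differently numbered arrays exceeded 0.1, and the pairs numbered 3 lay at 0.09 to 0.18. Shared animals or batches behind a number are thus not excluded. The labels do not say what a number stands for, so the main fit held no block. Promoter words were searched with Python 3.11.15.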

Additional observations from a re-analysis of the deposited data

How the results depend on the processing

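Up to 21 alternatives were run for each comparison. No called difference changed sign. The median of the members for CpG in Ly-6D+ CLPs, which lay near 0 at 0.0095, was -0.0064 after a further quantile normalisation and 0.0004 to 0.035 without single arrays. The median difference of the members for CpG in Ly-6D- CLPs was 0.10 after a further quantile normalisation, 0.22 with arrays centred on their medians, and 0.14 to 0.20 without single arrays. The count of members called there was 2 without the dimmest genes, 4 with a variance trend and robust estimation, 2 with array weights, 1 with centring and 2 at an adjusted p below 0.10. Of the genes tested, 1.6%, 1.92%, 0.933%, 0.613% and 1.47% were called in either direction under these settings, against 0.546% in the main fit. Centring also moved the median of the difference between CpG effects to -0.19 and that between populations after CpG to 0.026. Between populations after PBS, the members called numbered 10 with a variance trend and robust estimation, 1 with only the groups compared, 1 with a replicate block and 1 to 3 without single arrays, and the median 0.18 to 0.23 without single arrays. After CpG, none was called with only the groups compared (0), and 0 to 1 without single arrays. Over both treatments, 11 were called without the dimmest genes, 12 with a variance trend and robust estimation, 11 at an adjusted p below 0.10, and 2 to 5 without single arrays. Of the genes tested, 2.98% were called between populations after PBS with a variance trend and robust estimation. The share was 0.857% with only the groups compared and 1.56% with a replicate block, against 1.98% in the main fit. Over both treatments, it was 8.72% without the dimmest genes and 6.62% with a variance trend and robust estimation. At an adjusted p below 0.10 it was 6.98%, against 4.59% in the main fit. The replicate block also ended the calls of Ccne1, Uhrf1 and Cdc45 after PBS and of Pole over both treatments. E2f2 after PBS kept its call under all 21 alternatives. When a Ly-6D+ PBS array is omitted, the lone one left is assumed to vary as the other groups do. The 2 or 3 arrays a group limit the precision, and signal over background is unknown because detection values were not used here.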
